A study of Mus musculus with 8 samples.

Results

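Laminins, nidogens and perlecan are secreted proteins that form the basement membrane, the thin sheet of matrix that surrounds brain vessels and lies under the pia. A laminin is a cross-shaped trimer of an α, a β and a γ chain, each made from its own gene. Laminins assemble into a polymer that cells hold through integrins and dystroglycan. Nidogens and the heparan sulfate proteoglycan perlecan link this polymer to the collagen IV network. In the brain, endothelial cells, mural cells, perivascular fibroblasts and astrocytes are the known sources of these chains. Transcripts of 10 such genes were followed here in the mouse cortex, namely Lama2, Lama4, Lama5, Lamb1, Lamb2, Lamc1, Lamc3, Nid1, Nid2 and Hspg2. They were chosen by symbol among the 54752 genes of the deposited count tables, and all 10 had enough counts to be tested among 17136 genes. Each of the 10 was higher after bilateral carotid artery stenosis (BCAS) than after sham surgery, by a fitted fold of 1.45 (Lama5) to 4.91 (Nid1).

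RNA-seq was performed on the right cerebral cortex of 8 adult male wild-type C57BL/6 mice, with 1 mouse per library. In the 4 BCAS mice, wire coils had narrowed both common carotid arteries for 3 weeks, the right one more than the left, and the 4 sham mice had gone through the surgery without coils. The cortex analysed lay on the side of the tighter coil, and each library holds all of its cell types together. In such bulk tissue, more cells of a type and more RNA per cell cannot be told apart.

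The libraries held 16759364 to 21794435 counts over the exons of all genes. Levels are given as CPM, the counts scaled to library size after TMM normalization, with the mean ± SD over 4 mice. Sham and BCAS were compared with the quasi-likelihood F-test of edgeR, its p adjusted over all tested genes by the Benjamini-Hochberg method. Log2 fold changes (BCAS minus sham) are given with their standard error (SE), and a gene was called at an adjusted p under 0.05. Cortical neuron markers (8 genes, Slc17a7, Tbr1 and Emx1 among them) had a summed level of 2064 to 2334 CPM in sham mice and 640.2 to 1785 CPM after BCAS, and none of the 8 genes had a count of 0. Sham mouse 3 carried 804.3 CPM of choroid plexus markers against at most 54.7 CPM in the other sham mice. BCAS mouse 4 carried 879.2 CPM of striatal markers against at most 443.3 CPM in the other BCAS mice, and the sham mice carried 284.5 to 544.8 CPM of them.

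Under this rule all 10 genes were called higher, as were 19.2% of all tested genes (32% were called in either direction). A log2 fold change above 0, held by 10 of the 10, was held by 49.5% of all tested genes. Of the 10, 7 also had a log2 fold change above 1, the further threshold of the study, against 11% of all tested genes. This count depended on single mice. With 1 mouse left out, Lama2, Lamb1 and Lamc1 went as low as 0.84, 0.98 and 0.89, and Lamb2 as high as 1.07. The median log2 fold change of the family was 1.09, with a range from 0.54 for Lama5 to 2.29 for Nid1, whereas the median of all tested genes was -0.0063. In 9 of the 10 genes every BCAS mouse lay above every sham mouse, which was the case for 18.5% of all tested genes, and in 0 of them every BCAS mouse lay below, against 16.3%. The exception was Nid2. Without sham mouse 3, which carried the choroid plexus markers, 9 of the 10 were called, and the same number without BCAS mouse 4, which carried the striatal markers. The summed level of the family was 206.9 to 215.7 CPM in sham mice and 280.6 to 653.0 CPM after BCAS.

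The BCAS mice were far more spread than the sham mice, and they kept an order. BCAS mouse 1 had the highest level of the 4 BCAS mice for 10 of the 10 genes, and BCAS mouse 2 had the lowest for 10 of 10. The median rise above the sham mean on the log2 scale was 1.497 in BCAS mouse 1, 1.28 in BCAS mouse 3, 1.06 in BCAS mouse 4 and 0.43 in BCAS mouse 2. No sham value of a member lay further than 0.37 from its sham mean on this scale. The plot of single mice shows this for each gene.

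**Figure D1:**
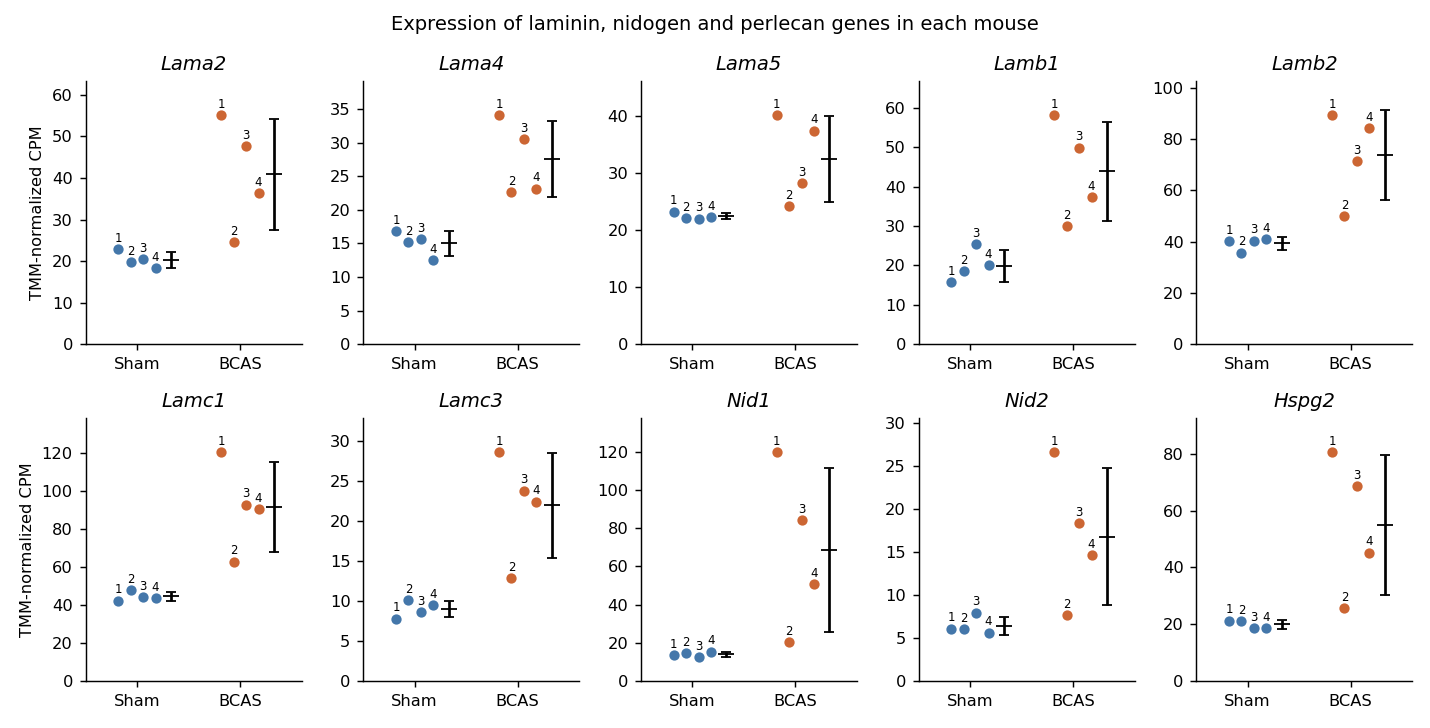
TMM-normalized CPM (y axis) of the 10 genes in 4 sham and 4 BCAS mice, with a panel for each gene; numbers are the mouse numbers and black marks give the mean ± SD. BCAS mouse 2 lies nearest to the sham mice in every panel, and its Nid2 value of 7.62 CPM is below the 7.95 CPM of sham mouse 3.

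The α chains carry the globular domains through which laminins bind receptors. Lama2 (ENSMUSG00000019899.16, chromosome 10, 26980036 to 27619758, mm10) encodes the α2 chain, whose loss causes a congenital muscular dystrophy. It was at 22.9, 19.8, 20.4 and 18.3 CPM in sham mice 1 to 4 and at 55.1, 24.6, 47.7 and 36.3 CPM in BCAS mice 1 to 4. Means were 20.4 ± 1.92 and 40.9 ± 13.4 CPM, and the log2 fold change was 1.01 ± 0.22 (SE; edgeR, adjusted p = 0.0127). BCAS mouse 2 was close above the sham mice, and the other 3 BCAS mice were well apart from them.

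Lama4 (ENSMUSG00000019846.11, chromosome 10, 38965515 to 39110188) encodes the α4 chain, a chain of endothelial basement membranes. Sham mice 1 to 4 had 16.8, 15.2, 15.7 and 12.5 CPM and BCAS mice 1 to 4 had 34.1, 22.6, 30.6 and 23.2 CPM, so that BCAS mice 2 and 4 were nearly equal. From 15.04 ± 1.83 to 27.6 ± 5.64 CPM, the log2 fold change was 0.88 ± 0.16 (SE; edgeR, adjusted p = 0.00653). Lama5 (ENSMUSG00000015647.9, chromosome 2, 180176373 to 180225859) encodes the α5 chain, the other α chain of endothelial laminins. It was nearly level in sham mice, at 23.2, 22.1, 21.96 and 22.3 CPM, and reached 40.0, 24.1, 28.25 and 37.4 CPM in BCAS mice 1 to 4. Its log2 fold change of 0.54 ± 0.16 (SE; edgeR, adjusted p = 0.03145) was the smallest of the 10 genes. BCAS mice 1 and 4 stood apart from BCAS mice 2 and 3 for this gene. The call of Lama5 was lost without any 1 of the 4 sham mice or without BCAS mouse 1 or 4, with an adjusted p of up to 0.0827 and a log2 fold change of 0.43 at the lowest.

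Lamb1 (ENSMUSG00000002900.16, chromosome 12, 31265234 to 31329644) encodes the widely used β1 chain. It varied most among the sham mice, with 15.8, 18.5, 25.5 and 20.03 CPM, and had 58.1, 30.1, 49.9 and 37.4 CPM in BCAS mice 1 to 4. The log2 fold change was 1.14 ± 0.22 (SE; edgeR, adjusted p = 0.00804), and sham mouse 3 came close to BCAS mouse 2. Lamb2 (ENSMUSG00000052911.9, chromosome 9, 108479736 to 108490530) encodes the β2 chain, known from the neuromuscular junction and the kidney filter as well as from vessels. Its values were 40.2, 35.7, 40.4 and 40.9 CPM in sham mice and 89.3, 50.02, 71.6 and 84.5 CPM after BCAS, with means of 39.3 ± 2.41 and 73.8 ± 17.5 CPM. The log2 fold change was 0.91 ± 0.17 (SE; edgeR, adjusted p = 0.00638). For Lamb2 and Lama5, BCAS mouse 4 lay above BCAS mouse 3, the reverse of their order for the other 8 genes.

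Lamc1 (ENSMUSG00000026478.14, chromosome 1, 153218922 to 153332786) encodes γ1, the γ chain of most laminins and the one that nidogens bind. It had 42.3, 48.0, 44.3 and 43.9 CPM in sham mice and 121, 62.9, 93.0 and 90.7 CPM after BCAS. From 44.6 ± 2.40 to 91.8 ± 23.6 CPM, the log2 fold change was 1.04 ± 0.17 (SE; edgeR, adjusted p = 0.00438), the smallest adjusted p of the family. Lamc3 (ENSMUSG00000026840.14, chromosome 2, 31887291 to 31946539) encodes γ3, a chain whose loss disturbs the folding of the human cortex. It had 7.79, 10.05, 8.58 and 9.47 CPM in sham mice and 28.6, 12.9, 23.8 and 22.4 CPM after BCAS, with a log2 fold change of 1.29 ± 0.22 (SE; edgeR, adjusted p = 0.00540). BCAS mice 3 and 4 were close together for both γ chains.

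Nidogens are small rod-like glycoproteins that hold laminin and collagen IV together. Nid1 (ENSMUSG00000005397.8, chromosome 13, 13437551 to 13512269) had the largest rise of the family. It was at 13.6, 14.7, 12.4 and 15.3 CPM in sham mice 1 to 4 and at 119.9, 20.2, 84.2 and 50.6 CPM in BCAS mice 1 to 4. The mean went from 14.01 ± 1.29 to 68.7 ± 43.0 CPM, with a fitted fold of 4.91 and a log2 fold change of 2.29 ± 0.45 (SE; edgeR, adjusted p = 0.00848). The 4 BCAS mice covered a wide range, yet the lowest of them was still above the highest sham mouse.

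Nid2 (ENSMUSG00000021806.4, chromosome 14, 19751265 to 19811787), the other nidogen, had 6.08, 5.99, 7.95 and 5.61 CPM in sham mice and 26.6, 7.62, 18.4 and 14.6 CPM after BCAS, with a log2 fold change of 1.39 ± 0.33 (SE; edgeR, adjusted p = 0.0167). Here BCAS mouse 2 fell below sham mouse 3, and the exact two-sided permutation test of the log2 values gave p = 0.0571, whereas the other 9 genes had 0.0286, the smallest p that 4 against 4 mice allow. Without sham mouse 1, 2 or 4, the adjusted p of Nid2 from edgeR's test was just over the threshold, at up to 0.0531. Reads were counted without regard to strand, and 8.45% of the exon bases of Nid2 are also exon bases of Rtraf on the opposite strand. Rtraf itself was at 48.7 ± 1.76 CPM in sham mice and 50.3 ± 6.11 CPM after BCAS. The overlaps of Lama2 (3.86%), Lamc3 (6.27%) and Nid1 (2.06%) were with annotated genes that had at most 1 count in any library. Reads shared by overlapping genes were counted for neither, so these low counts do not measure reads on the shared bases. The other 6 members shared no exon base with another gene.

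Hspg2 (ENSMUSG00000028763.17, chromosome 4, 137468769 to 137570630) encodes perlecan, the large basement membrane proteoglycan that binds growth factors through its heparan sulfate chains. It was at 21.3, 21.0, 18.5 and 18.7 CPM in sham mice and at 80.6, 25.5, 68.5 and 45.2 CPM after BCAS. The mean went from 19.9 ± 1.44 to 54.9 ± 24.5 CPM, with a fitted fold of 2.77 and a log2 fold change of 1.47 ± 0.31 (SE; edgeR, adjusted p = 0.0101). Hspg2 and Nid1 had the same order of BCAS mice, 1, 3, 4 and 2, with clear steps between them.

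**Figure D2:**
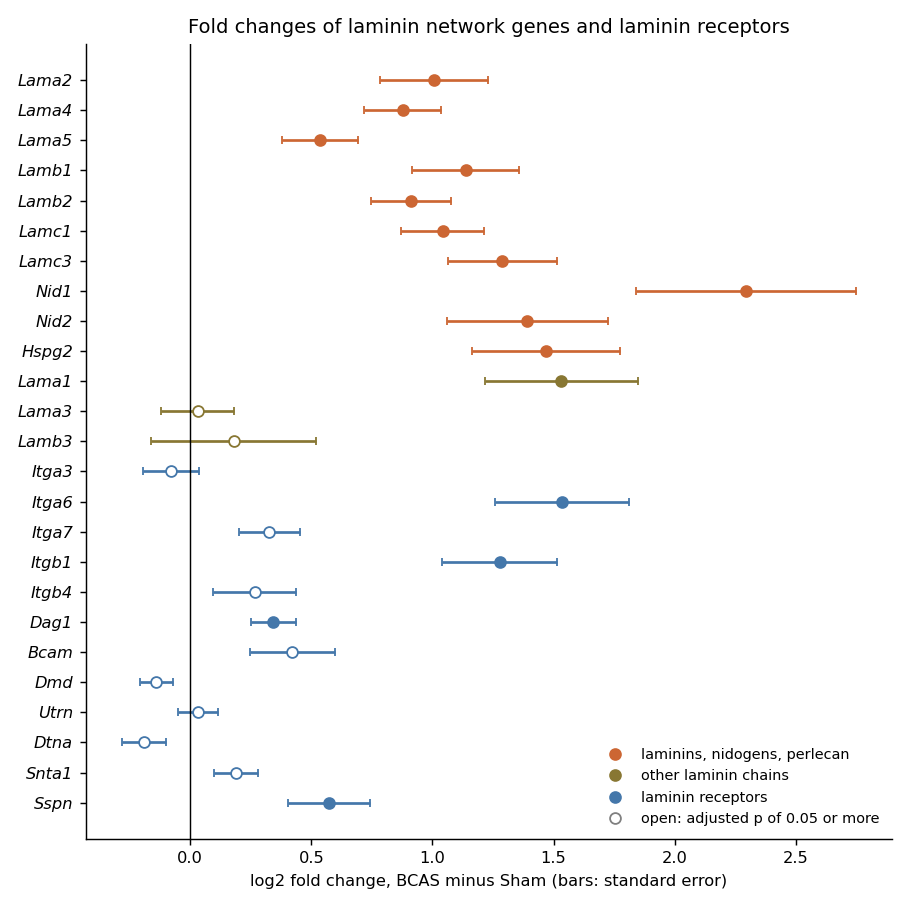
log2 fold changes (x axis, BCAS minus sham, bars are standard errors) of the 10 family genes, 3 further laminin chains and 12 laminin receptor genes; filled points passed an adjusted p under 0.05. All family genes are filled and lie between 0.54 and 2.29.

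Since the 10 genes rose together, the start regions of those with the largest and smallest change and of perlecan are shown. The RefSeq table of promoters (GRCm38.p6, the sequence of mm10) held 6 of the 10 genes, Lama2, Lama5, Lamb1, Lamb2, Nid1 and Hspg2, each with 250 bases before and 50 bases after a transcript start. Only bases upstream of the annotated gene are printed, 5′ to 3′ on the gene's strand, with matches to the Sp1 box GGGCGG on either strand in capitals.
Nid1, chr13:13437352-13437550, plus strand: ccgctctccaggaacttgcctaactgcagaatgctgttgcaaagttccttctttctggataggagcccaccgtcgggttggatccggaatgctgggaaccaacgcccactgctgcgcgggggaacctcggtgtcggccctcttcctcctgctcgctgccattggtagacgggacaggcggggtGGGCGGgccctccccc
Lama5, chr2:180225860-180226109, minus strand: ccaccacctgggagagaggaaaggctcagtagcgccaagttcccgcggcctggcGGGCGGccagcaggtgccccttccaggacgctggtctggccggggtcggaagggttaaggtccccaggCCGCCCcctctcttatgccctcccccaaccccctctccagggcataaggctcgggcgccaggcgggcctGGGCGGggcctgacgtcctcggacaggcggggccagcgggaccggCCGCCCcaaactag
Hspg2, chr4:137468553-137468768, plus strand: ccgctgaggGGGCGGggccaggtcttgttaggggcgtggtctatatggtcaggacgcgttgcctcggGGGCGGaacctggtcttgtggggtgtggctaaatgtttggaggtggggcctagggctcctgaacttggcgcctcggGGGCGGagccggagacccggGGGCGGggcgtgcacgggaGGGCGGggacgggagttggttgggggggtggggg
The printed stretches hold 1 match in Nid1, 4 in Lama5 and 5 in Hspg2. Over the whole windows, GGGCGG or its complement was found in 5 of the 6 genes, Lamb2 being without it, and in 35.7% of all 32851 windows of the table. Over the 250 bases before the table's transcript start, G and C made up 72.4% for Lama5, 70% for Hspg2, 64.4% for Nid1, 62.0% for Lamb1, 47.2% for Lama2 and 43.6% for Lamb2, so that the 6 genes lay on both sides of the median of 52.4% over the same bases of all windows. The transcript start used for Lama2 lies within the annotated gene, so its window is not that of the gene's outer start. None of the 6 windows held the AP-1 letters TGANTCA, the interferon-stimulated response element core (GAAA, 2 free bases, GAAA), the NF-kB letters GGGNNTTCC or the hypoxia response element core TACGTG on either strand, which were in 7.81%, 3.44%, 5.82% and 3.23% of all windows. The STAT letters TTCNNNGAA, in 8.3% of all windows, were in that of Lamb2. None of these motifs is a part of another. These are matches of letters and not binding sites.

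Levels of different chains were compared per length, as TPM, from the counts divided by the exon bases of each gene and scaled to a fixed total per library. In sham mice, Lamb2 (27.3 ± 2.17 TPM) and Lamc1 (22.7 ± 1.27 TPM) led the family, and the other 8 genes lay between 5.24 TPM (Nid2) and 8.52 TPM (Lamb1). From the lowest up, the order was Nid2, Lama4, Lama2, Hspg2, Lamc3, Lama5, Nid1 and Lamb1. Neighbours in this order differed by less than the SD of at least 1 of the pair, except Lama2 and Hspg2 (5.25 and 5.85 TPM) and Lamc3 and Lama5 (6.21 and 8.29 TPM). In BCAS mice, Lamb2 (50.6 ± 11.2 TPM), Lamc1 (46.2 ± 10.5 TPM) and Nid1 (40.8 ± 24.4 TPM) were the highest, and their means lay within 1 SD of each other. The lowest were Lama4 (9.52 ± 1.62 TPM) and Lama2 (10.4 ± 3.08 TPM), and no neighbours among the 10 differed by more than the larger of their SDs.

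Summed over chains of 1 kind, the α chains went from 25.2 ± 0.79 to 42.9 ± 8.34 TPM and the β chains from 36.8 to 70.1 TPM, without overlap between the groups. These sums include Lama1, Lama3 and Lamb3, which are outside the family. Within the α chains, Lama5 had the largest mean share in both groups, 32.8% in sham and 27.9% in BCAS mice, followed by Lama2 (20.8% and 23.8%) and Lama4 (20.8% and 22.4%), and the groups overlapped for each. Lamb2 made up 74.2% of the β chains in sham and 72.0% in BCAS mice, also with overlap. Lamb2 was 3.30 times as abundant per length as Lamb1 in sham and 2.81 times in BCAS mice, and Lamc1 was 3.68 ± 0.270 and 3.14 ± 0.318 times as abundant as Lamc3, both with overlap. Nid1 was 1.67 ± 0.373 times as abundant per length as Nid2 in sham mice and 2.83 ± 0.684 times after BCAS, and BCAS mouse 2 (1.98) lay below sham mouse 4 (2.04). These shares and ratios are described without a test.

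**Figure D3:**
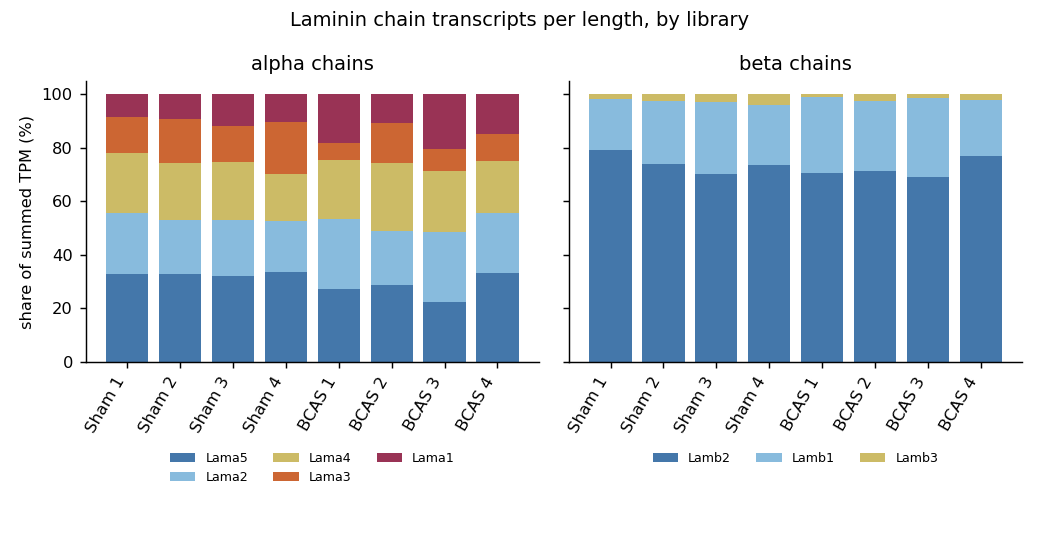
Share (y axis, percent of summed TPM) of each laminin gene among the α chains and among the β chains in each of the 8 libraries. Lamb2 is the largest part of the β chains in every library (means 74.2% and 72.0%), and the α chains are divided among 5 genes.

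Among further laminin chains, Lama1 was called higher, whose α1 product belongs to the pial and parenchymal basement membrane. It had 5.11, 5.24, 6.86 and 5.91 CPM in sham mice and 22.7, 7.73, 22.1 and 14.3 CPM after BCAS, with a log2 fold change of 1.53 ± 0.32 (SE; edgeR, adjusted p = 0.00974) and no overlap. For the epithelial α3 and β3 chains, Lama3 was at 10.01 ± 1.55 and 10.2 ± 1.18 CPM and Lamb3 was at 1.62 ± 0.641 and 1.83 ± 0.572 CPM in sham and BCAS mice. Neither was called, with log2 fold changes of 0.03 and 0.18 whose sign turned when single mice were left out.

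Laminin receptors are integrins, dystroglycan and the proteins that tie dystroglycan to the cytoskeleton. Of 12 such genes, 4 were called higher, beside 19.2% of all tested genes, and 0 lower, and their median log2 fold change was 0.30. The laminin-binding integrin subunit Itga6 went from 38.1 ± 3.57 to 110.4 ± 46.6 CPM (log2 fold change 1.54 ± 0.28 SE; edgeR, adjusted p = 0.00617), and its partner Itgb1 from 82.3 ± 0.955 to 199.4 ± 74.9 CPM (log2 fold change 1.28 ± 0.24 SE; edgeR, adjusted p = 0.00701). Both calls held without any single mouse. Dag1, the gene of dystroglycan, was called with a log2 fold change of 0.34 (SE 0.09; edgeR, adjusted p = 0.0241), and Sspn, the membrane protein sarcospan of the same complex, with 0.57 (SE 0.17; edgeR, adjusted p = 0.0318). Dag1 lost its call without any 1 sham mouse or BCAS mouse 3 or 4, and Sspn without sham mouse 1, 3 or 4 or BCAS mouse 1, 3 or 4, reaching adjusted p-values of 0.0703 and 0.0796 in edgeR, so that the list had 2 calls without sham mouse 1, 3 or 4 or BCAS mouse 3 or 4. Dystroglycan binds laminin only through sugars added in the secretory pathway. Of 12 genes for that glycosylation, 1 was called higher and 5 lower, where 12.8% of all tested genes were called lower, and the median log2 fold change was -0.31. Pomt1, an enzyme that starts the sugar chain, was the 1 higher gene, with a log2 fold change of 0.36 and an adjusted p of 0.0488 by edgeR that passed the threshold in 5 of 17 other settings. With single mice left out, 1 to 5 of the 12 were called lower, the 1 being without sham mouse 1. The mean level of these enzymes was lowest in BCAS mouse 1 and nearest to the sham level in BCAS mouse 2, the mice in which the family was highest and lowest among the BCAS mice, and the neuron markers had the same order.

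Of 22 other basement membrane genes, 13 were called higher and 0 lower, with a median log2 fold change of 0.79; 8 were called higher without sham mouse 1 or without sham mouse 2. Collagen IV chains form the second network of the basement membrane. Its main chains rose with the family, Col4a1 from 48.3 to 134.0 CPM (log2 fold change 1.47, adjusted p = 0.00988 by edgeR) and Col4a2 from 52.2 to 95.9 CPM (0.88, adjusted p = 0.0222 by edgeR). The call of Col4a2 was lost without any 1 sham mouse or BCAS mouse 3, with an edgeR adjusted p of up to 0.0624. The largest log2 fold changes were those of Col18a1, the source of endostatin (2.74 ± 0.54 SE; edgeR, adjusted p = 0.00863), and Col4a6 (2.51 ± 0.51 SE; edgeR, adjusted p = 0.00953). With limma-voom neither was called, at adjusted p-values of 0.0526 and 0.0518. Sparc, a collagen-binding protein with the highest CPM of the list over all 8 mice, went from 159.0 ± 14.9 to 723.9 ± 300.1 CPM (log2 fold change 2.19). Agrn, the heparan sulfate proteoglycan agrin, was at 212.5 CPM in sham and 207.0 CPM in BCAS mice (log2 fold change -0.04, adjusted p = 0.702 by edgeR), and its sign turned with scaling by library size alone. Hspg2 and Agrn thus differed in whether they were called; the difference between them was not tested. Col4a1, Col4a2 and Agrn were picked after their values were seen.

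Of 17 tested genes for matrix proteases and their inhibitors, 15 were called higher and 0 lower, with a median log2 fold change of 2.10. The lysosomal cathepsins cleave matrix proteins among others. Ctss, a cathepsin of microglia and macrophages, went from 54.6 ± 4.40 to 1060 ± 623 CPM, and Ctsb from 603.0 ± 69.6 to 2590 ± 1358 CPM. Mmp3, the metalloprotease stromelysin 1, which can cleave laminin, nidogen and perlecan, had 0 counts in all 4 sham mice and 748, 76, 518 and 203 counts in BCAS mice 1 to 4, at least 106.8-fold over a floor of 3 counts per sham library, on the scale of TMM-normalized CPM. Its order among the BCAS mice was that of Nid1. Among 15 genes that build or trim heparan sulfate, the sugar on perlecan, 3 were called higher and 2 lower, which are near the shares of all tested genes (19.2% and 12.8%), and the median log2 fold change was -0.01. Hpse, the heparanase that cuts these chains, went from 1.72 ± 0.646 to 22.6 ± 13.8 CPM (log2 fold change 3.70, adjusted p = 0.00347 by edgeR) and Sulf1, which removes sulfate from them, from 24.6 ± 7.29 to 55.2 ± 20.3 CPM (1.16, adjusted p = 0.0218 by edgeR). The chain polymerase Ext1 (69.5 to 49.1 CPM) and the sulfotransferase Hs2st1 (102.3 to 81.5 CPM) were called lower with log2 fold changes of -0.50 and -0.33, and Extl3, with the highest CPM of the list, was not called (log2 fold change -0.10, adjusted p = 0.370 by edgeR). With single mice left out, 1 to 6 of the 15 were called higher and 0 to 3 lower. Among the calls lost were Sulf1 without sham mouse 1, 2 or 4 or BCAS mouse 3 (up to 0.0668), Ext1 without sham mouse 1 or 2 or BCAS mouse 4 (up to 0.0742) and Hs2st1 without any 1 sham mouse or BCAS mouse 3 or 4 (up to 0.0809, adjusted p by edgeR).

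**Figure D4:**
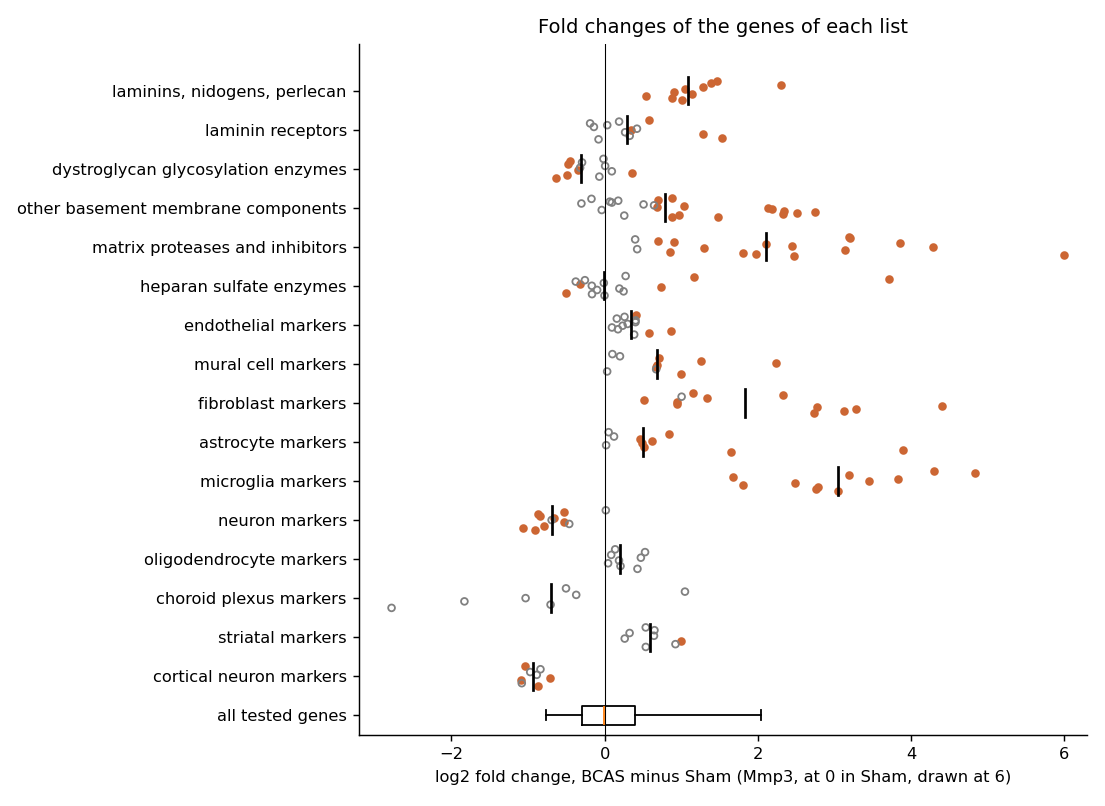
log2 fold change (x axis, BCAS minus sham) of each gene of the lists; filled points passed an adjusted p under 0.05, black bars are medians, and the box gives the quartiles and the 5 to 95% range of all tested genes. The family, with a median of 1.09, lies to the right of the endothelial (0.34) and mural (0.68) markers and to the left of the fibroblast (1.84) and microglia (3.05) markers.

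Markers of the cells that make or adjoin the basement membrane were set beside the family, and their part in its rise was not tested. For endothelial cells, 3 of 12 markers were called higher, near the 19.2% of all tested genes, and 0 lower (median log2 fold change 0.34), and with single mice left out from 0 (without sham mouse 2 or 4 or BCAS mouse 3) to 6 (without BCAS mouse 2). Cdh5, the adhesion molecule of endothelial junctions, went from 18.5 ± 2.37 to 33.8 ± 9.98 CPM, and Pecam1 from 30.7 ± 3.04 to 45.8 ± 10.4 CPM, while the glucose transporter Slc2a1 had an adjusted p of 0.150 by edgeR (95.04 ± 6.47 and 113.7 ± 20.5 CPM). Summed over the list, endothelial markers were at 451.3 to 571.7 CPM in sham and 531.6 to 778.7 CPM in BCAS mice, a ratio of means of 1.24, against 2.24 for the family. The call of Cdh5 was lost without sham mouse 2 or 4 or BCAS mouse 3 (up to 0.0569) and that of Pecam1 without any 1 sham mouse or BCAS mouse 3 or 4 (up to 0.0751, adjusted p by edgeR), while Slc2a1 was called without BCAS mouse 2 (0.00996). The family divided by the endothelial markers was 0.406 ± 0.049 in sham and 0.721 ± 0.165 in BCAS mice, higher in each BCAS mouse than in any sham mouse.

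For mural cells, 6 of 10 tested markers were called higher (median 0.68), among them Anpep, which limma-voom did not call (adjusted p = 0.0696), and the proteoglycan gene Cspg4 (25.5 ± 1.58 to 60.7 ± 18.7 CPM). Rgs5, with the highest CPM of the list, was at 152.9 ± 10.99 and 156.4 ± 23.0 CPM. Summed mural markers were at 351.4 to 418.0 CPM in sham and 435.4 to 709.3 CPM in BCAS mice, and the family divided by them was 0.532 ± 0.054 and 0.798 ± 0.142, again without overlap. Against fibroblast markers the ratio went the other way. Of these 12 markers 11 were called higher (median 1.84), with the fibrillar collagen Col3a1 from 5.71 ± 1.37 to 120.6 ± 83.9 CPM and Col1a1 from 12.5 ± 1.54 to 120.6 ± 84.1 CPM. Summed fibroblast markers were at 313.1 to 355.7 CPM in sham and 547.2 to 2231 CPM in BCAS mice, and the family divided by them fell without overlap, from 0.636 ± 0.044 to 0.380 ± 0.123. Of 10 astrocyte markers, 7 were called higher (4 without sham mouse 2, 3 or 4 or BCAS mouse 3 or 4), led by the intermediate filament gene Gfap (155.5 to 2320 CPM) and the endfoot water channel Aqp4 (169.7 to 533.0 CPM), with Slc1a2, the main glutamate transporter, at 3533 and 3581 CPM. The family divided by astrocyte markers overlapped between the groups.

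All 11 microglia markers were called higher (median log2 fold change 3.05), summing to 374.1 to 445.2 CPM in sham and 1533 to 5813 CPM in BCAS mice. As with fibroblast markers, the family divided by microglia markers fell without overlap, from 0.514 ± 0.044 to 0.155 ± 0.033. Of 11 neuron markers 8 were called lower (median -0.69), and 1 to 10 with single mice left out, the 1 being without sham mouse 1 or 4 or BCAS mouse 4. Among them was Snap25, a protein of synaptic vesicle release, which went from 3218 ± 467 to 1537 ± 511 CPM. Its call was lost without sham mouse 1 or 4 or BCAS mouse 4, with an edgeR adjusted p of up to 0.0541. The summed neuron markers were at 10612 to 12241 CPM in sham and 4289 to 9080 CPM in BCAS mice. The family divided by neuron markers rose without overlap, from 0.0183 ± 0.0014 to 0.081 ± 0.051. Of 8 oligodendrocyte markers 0 were called by edgeR, with 1 at an unadjusted p under 0.05, and 1 was called by DESeq2 and 0 by limma; without BCAS mouse 2, edgeR called 3 higher. Of 7 tested choroid plexus markers 0 were called by edgeR, DESeq2 or limma, with 1 at an unadjusted p under 0.05. Of 8 striatal markers 1 was called higher, Adora2a, a receptor of striatal projection neurons (17.0 ± 6.84 to 33.7 ± 13.6 CPM), and its call was lost without sham mouse 1, 3 or 4 or BCAS mouse 1, 3 or 4, at an edgeR adjusted p of 0.056 to 0.117, the highest without BCAS mouse 4. Of 8 cortical neuron markers 4 were called lower by edgeR and 8 by DESeq2, and the count was 0 without sham mouse 1, 2 or 4 or BCAS mouse 4 and 8 without BCAS mouse 1 or 2. No marker of these lists was at 0 counts in any library.

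The members varied together among mice of 1 group. With the group means removed, Pearson's r of the log2 CPM of 2 members over the 8 libraries ranged from 0.39 to 0.98 over the 45 pairs, with a median of 0.81. In the same way the mean of the family had an r of 0.996 with the protease list, 0.96 with the other basement membrane genes, 0.96 with fibroblast, 0.95 with microglia, 0.90 with astrocyte, 0.78 with mural and 0.76 with endothelial markers, and of -0.90 with neuron markers and -0.94 with the dystroglycan enzymes. It was 0.94 with the heparan sulfate enzymes, 0.88 with the receptors, 0.55 with oligodendrocyte, 0.07 with choroid plexus, 0.09 with striatal and -0.83 with cortical neuron markers. These values describe 8 libraries that share their totals and their cell makeup, and most of the spread is that among the 4 BCAS mice. A further r was taken with the group means left in, so it also holds the difference between sham and BCAS mice. By it, the genes whose log2 CPM was most like that of Nid1 over the 8 libraries were Bgn, Prdx1 and Pla2g4a. Bgn (r = 0.999), the matrix proteoglycan biglycan, went from 22.01 to 104.6 CPM. Prdx1 (0.998), a peroxide-reducing enzyme, went from 99.0 to 163.2 CPM, and Pla2g4a (0.997), a phospholipase that releases arachidonic acid, from 5.57 to 15.8 CPM.

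**Figure D5:**
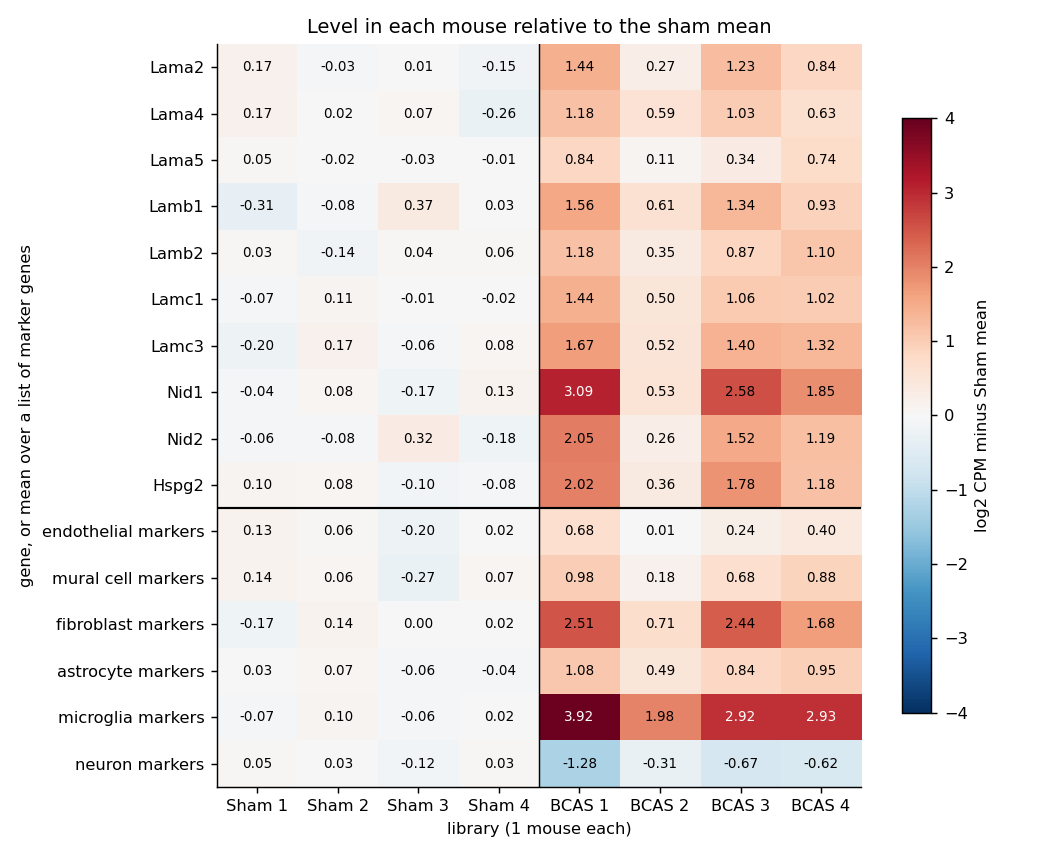
log2 CPM minus the sham mean (color and numbers) for each member and for the mean of 6 marker lists, with a column for each mouse. BCAS mouse 1 has the strongest color and BCAS mouse 2 the weakest among the BCAS mice in every row of the family. The same holds in the endothelial, mural, fibroblast, microglia and astrocyte rows and, with the opposite sign, in the neuron row.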

How the data were processed

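Sequencing reads from 8 cortex libraries were processed by the authors with FastQC, Trim Galore, HISAT2 (mm10) and SAMtools 1.9, and the deposited values are raw counts of reads per gene from featureCounts. The file headers name featureCounts 2.0.1 with GENCODE vM20, whereas the labels name version 1.6.3. The headers show no strand option, so genes that overlap on opposite strands could not be separated. Reads shared by overlapping genes of either strand were not counted.

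Gene symbols came from GENCODE, which matched 54723 of 54752 identifiers without their version. Totals were 16759364 to 21794435 counts, so that 3 counts corresponded to at most 0.187 TMM-normalized CPM, a limit that covers counting error only. Sham and BCAS libraries were compared in edgeR 4.0.16 (R 4.3.3) with filterByExpr (at least 10 counts, 15 in total), TMM normalization and the quasi-likelihood F-test without covariates, adjusted over 17136 genes by Benjamini-Hochberg. The standard error is the log2 fold change over the square root of F. TPM used the exon lengths of the count files. The study used a log2 scale and limma, which was run as an alternative (limma 3.58.1, also voom), as was DESeq2 1.42.0. Statistics were tested on simulated data. A protein comparison was planned and not made, and some genes of the lists are not reported here. The members, the lists and the rule for named genes (members, other laminin chains, called receptors, the 2 most increased, 2 most decreased and the most abundant gene of each list, 3 genes most like Nid1) were chosen with earlier results of these data known.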

Additional observations from a re-analysis of the deposited data

Results flagged for a closer look

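In groups of 4 mice, a value stood apart from the others of its group in 6 of 62 groups checked by Dixon's ratio at its critical value, where chance gives about 1 in 20. One concerned the family itself: Lamb2 was at 35.7 CPM (35.69) in sham mouse 2 and at 40.2 to 40.9 CPM in the other sham mice. The others concerned summed marker levels. Sham mouse 3 was lowest for mural cell markers (351.4 CPM, others 410.8 to 418.0 CPM), lowest for oligodendrocyte markers (3885 CPM, others 5993 to 6255 CPM) and highest for choroid plexus markers (804.3 CPM, others 19.7 to 54.7 CPM). BCAS mouse 4 was highest for choroid plexus markers (78.9 CPM, others 43.7 to 46.5 CPM) and for striatal markers (879.2 CPM, others 420.6 to 443.3 CPM).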

How the results depend on the processing

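All 10 members were called higher and 0 lower under each other normalization (DESeq2 size factors, upper quartile, library size alone), without a filter, with at least 10 counts in every library, and with DESeq2, limma-voom or limma on log2(CPM + 1). With the replicate number as a block 9 were called, Lama5 having an adjusted p of 0.0521 in edgeR's test. With single libraries left out, 8 to 10 were called (8 without sham mouse 1, 2 or 4, 9 without sham mouse 3, BCAS mouse 1 or BCAS mouse 4). The other 8 members, all but Lama5 and Nid2, kept their call in all 17 alternatives, at an adjusted p of at most 0.0441. No pairing by replicate number was visible, as deviations of same-numbered mice had correlations of -0.1031 to 0.0013, within the -0.1122 to 0.1248 of other pairs. Over all tested genes, the number called higher was 2131 to 4491 and called lower 418 to 3675 with single libraries left out. The number called lower was 1294 with library size alone and 1127 with the replicate block, and 1877 higher and 220 lower also passed a log2 fold change of 1. The median log2 fold change of all genes was 0.08 with library size alone, against -0.0063 with TMM. Of the list counts under these alternatives, 459 of 544 stayed within 1.5 times and 85 did not. Log2 fold changes near 0 turned sign when mice were left out. Over these libraries left out 1 at a time, Lama3 ranged from -0.03499 (without sham mouse 3) to 0.1242, Lamb3 from -0.03872 (without BCAS mouse 4) to 0.4526, Rgs5 from -0.06013 (without BCAS mouse 1) to 0.09692, Slc1a2 from -0.03046 (without BCAS mouse 4) to 0.07307 and the striatal gene Ppp1r1b from -0.08756 (without BCAS mouse 4) to 0.4108. By contrast, Ttr, the choroid plexus transthyretin, was at -2.78 in the main fit and ranged from -3.186 to 0.5404, the value without sham mouse 3. Its counts were 12169 in sham mouse 3 and 253, 548 and 128 in sham mice 1, 2 and 4. Agrn was at 0.05124 with library size alone. The cause of these changes was not tested.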
